A study of Mus musculus with 19 samples.

Results

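Smooth muscle contractile genes were measured by RNA sequencing in mouse prostate, cultured fibroblasts and renal tissue grafts. The set is a list of 10 named genes of the 23284 genes in each deposited table: Acta2, Actg2, Myh11, Cnn1, Tagln, Des, Lmod1, Smtn, Myocd and Synpo2. All 10 were found in both tables and all 10 passed the filter on low values in every comparison.

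The 6 prostate samples came from wild-type C57BL/6 mice at 6 weeks of age, and which lobes were taken is not given in the sources used here. The 6 fibroblast samples were embryonic fibroblasts (MEFs) on C57BL/6, grown from limb buds of pooled male and female littermates at E13.5 (embryonic age in days) in medium with serum. The 7 renal grafts held induced epithelial (iEpt) cells, made from mouse fibroblasts with human OCT4, SOX2, KLF4 and c-MYC, mixed with rat embryonic urogenital mesenchyme and grown for 6 weeks under the kidney capsule of male nude mice carrying testosterone. Of these, 5 (FS002, FS003, FS005, FS007, FS008) are in a table of 17 samples, and a supplementary table of the study names them as iEpt+NAF, where NAF stands for a combination of transcription factors delivered by lentivirus. The other 2 grafts, FS022 and FS023, are in a separately normalized table and are, by elimination, the grafts of iEpt cells without NAF. The sample labels do not separate the 2 kinds of graft, so FS022 and FS023 entered no test and each is given by its own values. A graft is a mixture of mouse iEpt cells, rat stroma and whatever host kidney was taken with it, and reads from mouse and rat transcripts cannot be told apart in these values. How well rat reads match the mouse genome may differ between genes and was not measured, which bears on every comparison with grafts. Values are on a log2 scale of normalized reads, on which a difference of 1 is a doubling, and where the level of 3 reads lay between 1.68 and 2.34 in the table of 17 samples and at 3.12 in FS022 and 2.70 in FS023. Estimated reads on genes were 16767287 to 26152338 per sample in the first table, and 6629662 in FS022 and 9662056 in FS023.

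Markers of the labelled tissues were present. The 7 prostate secretory markers made up 8.17% to 13.47% of the normalized level in prostate and 0.0263% to 0.0869% in the 5 grafts. The 12 fibroblast markers made up 4.51% to 5.60% in fibroblasts and 0.168% to 0.566% in prostate, and the 8 epithelial markers 0.209% to 0.475% in the 5 grafts, beside 0.249% to 0.353% in prostate. Grafts FS022 and FS023 had 0.247% and 0.0617% of the epithelial markers and 0.0519% and 0.0013% of the secretory ones.

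Smooth muscle cells contract when the myosin heavy chain Myh11 pulls on thin filaments built from the smooth muscle actins Acta2 and Actg2. Calponin (Cnn1), transgelin (Tagln), smoothelin (Smtn) and leiomodin (Lmod1) bind those filaments or nucleate them, the intermediate filament protein desmin (Des) and the actin-bundling protein Synpo2 link them to dense bodies, and myocardin (Myocd) is the coactivator that, with serum response factor, drives transcription of the group. In the prostate, smooth muscle forms a sheath around the ducts, while cultured fibroblasts can make Acta2 and Tagln as they become myofibroblasts. Desmin and Synpo2 are also abundant in skeletal and heart muscle.

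In prostate, 6 of the 10 genes were higher than in fibroblasts, 0 were lower, and 4 did not pass the test, which asked for an adjusted p below 0.05 in limma and an absolute log2 difference of at least 1. Of all 14560 genes tested in that comparison, 27.8% were called higher in prostate, 20.5% lower and 48.3% in either direction. The 5 grafts of the first table were lower than fibroblasts in 5 genes (Acta2, Tagln, Lmod1, Cnn1 and Smtn) and higher in 3 (Des, Synpo2 and Myh11), against 12.0% of 16121 genes called lower and 29.9% higher, 41.9% in all. Prostate was higher than these grafts in 9 genes, with Des as the exception, against 10.3% of 16353 genes called higher and 23.0% lower, 33.3% in all. The median log2 difference over the 10 genes was 1.46 for prostate minus fibroblasts, -1.49 for grafts minus fibroblasts and 2.95 for prostate minus grafts, beside 0.17, 0.26 and -0.11 over all genes tested. The groups did not overlap in 7 of the 10 genes between prostate and fibroblasts, in 5 between grafts and fibroblasts and in 9 between prostate and grafts, where 66.7%, 47.3% and 37.2% of all genes tested did not. These 3 comparisons share their samples with one another. In bulk tissue, fewer cells of a type and less RNA per cell cannot be told apart.

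**Figure D1:**
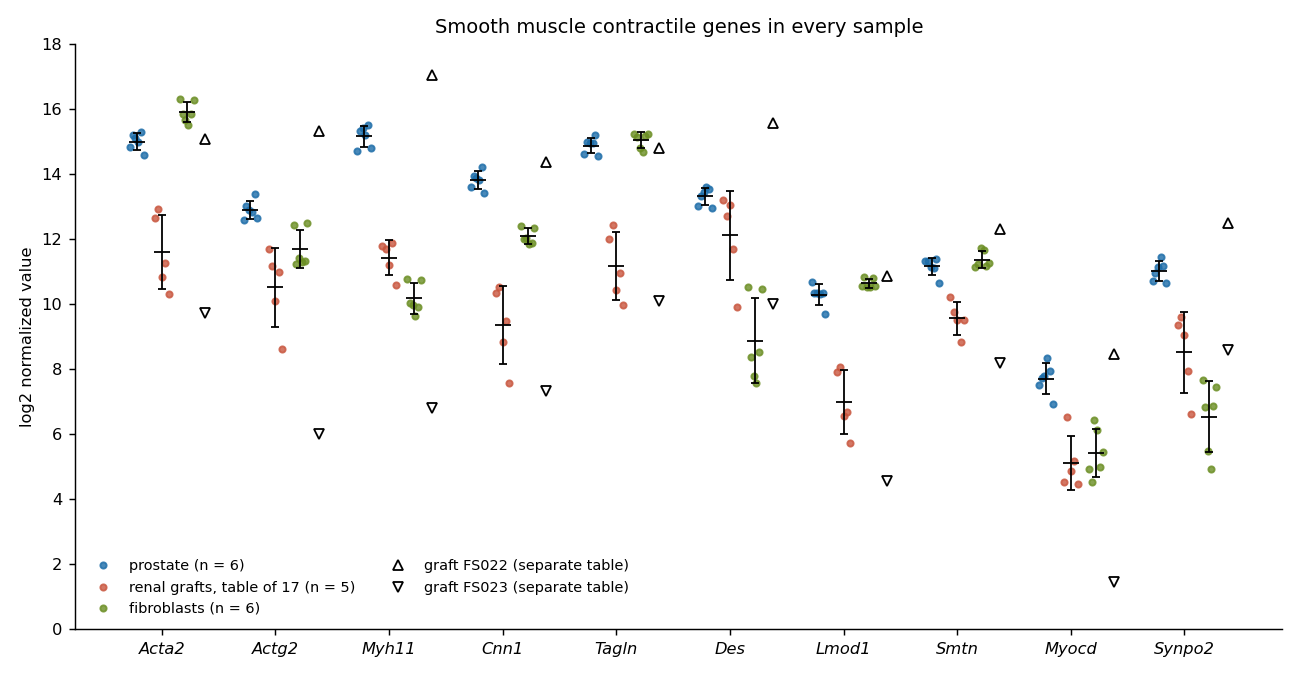
Log2 normalized value of each of the 10 genes in every sample, with prostate in blue (n = 6), the renal grafts of the first table in red (n = 5), fibroblasts in green (n = 6) and grafts FS022 and FS023 of the separately normalized table as open triangles. Black bars are the mean ± SD. Tagln, Lmod1 and Smtn overlap between prostate and fibroblasts, Acta2 is higher in every fibroblast than in every prostate sample, and all 4 are lower in the 5 grafts of the first table. Among the 3 groups of that table, Myh11, Des and Synpo2 have their lowest mean in fibroblasts, while FS023 lies below every fibroblast for Myh11.

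**Figure D2:**
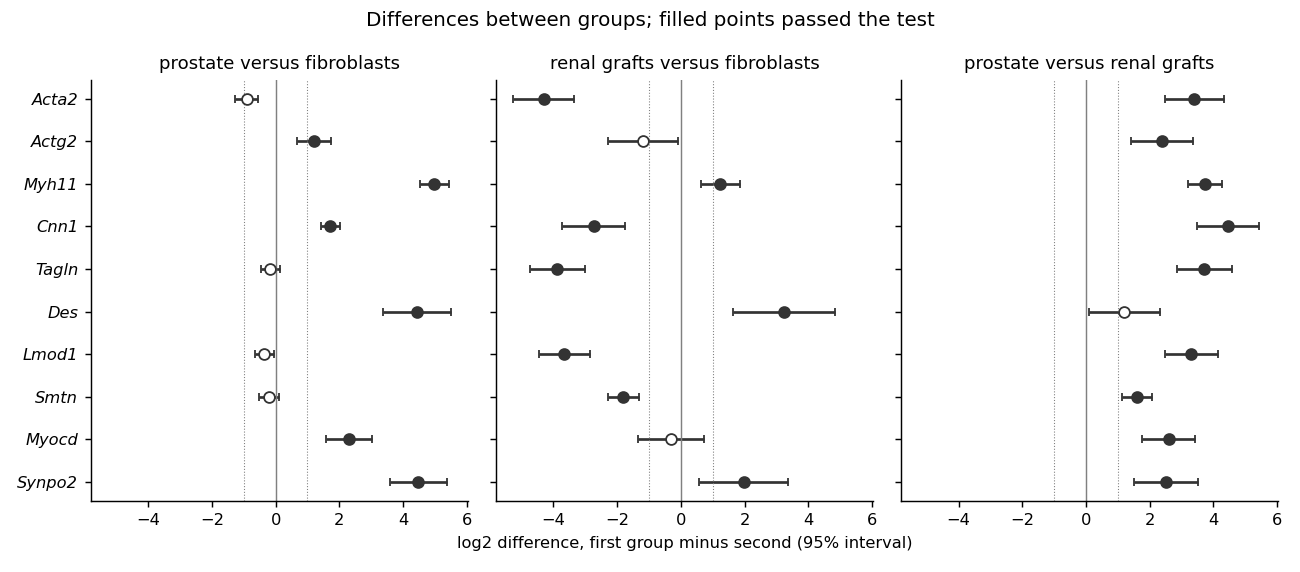
Log2 difference between groups (x axis, first group minus second) for each gene, with the 95% interval from limma. Filled points passed the test, and the dotted lines mark a difference of 1. Myh11 is 4.98 higher in prostate than in fibroblasts, whereas Acta2 is 0.91 lower and lies inside the dotted lines.

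The 2 smooth muscle actins are close in sequence. Over the 1131 bases compared back from the stop codon, the coding sequences of Acta2 and Actg2 were 83.8% identical, with a longest shared run of 29 bases. Acta2 and the skeletal muscle actin Acta1 were 85.4% identical, also with a longest run of 29 bases. A stretch of 30 bases is shown because it marks what a read can use to tell the actins apart. It has the most differences between Acta2 and Actg2, leaving out stretches that start in the first 30 bases compared. Capitals mark the bases that differ from Acta2 (10 in Actg2 and 5 in Acta1), from the GENCODE M1 transcripts:
Acta2 coding bases 819 to 848: agcgggcatccacgaaaccacctataacag
Actg2 coding bases 816 to 845: agcTggAatTcaTgaaacAacAtaCaaTTC
Acta1 coding bases 819 to 848: TgcgggGatccaTgaGaccacctaCaacag
Of all windows of 50 bases in the longest coding transcript, 0.404% of those in Acta2 were found in another gene (Actg1), 0.395% of those in Myh11 (Myh9 and Myh10) and 0.0197% of those in Myocd, and none of those in the other 7 genes. The read length and the handling of reads with several matches are not given in the sources used here.

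Acta2 (mm9 chr19:34315580-34329826, minus strand) was the most abundant of the 10 genes in fibroblasts on a linear scale per kilobase of exon, with a mean of 35235 normalized reads per kilobase. In prostate its log2 value was 14.58 at the lowest, 15.04 at the median and 15.29 at the highest. In fibroblasts the lowest was 15.52, the median 15.84 and the highest 16.31, so the groups did not overlap and every fibroblast sample was above every prostate sample. The difference of -0.91 ± 0.16 (SE, prostate minus fibroblasts, adjusted p = 0.00016 in limma) stayed under the minimum of 1, and an exact permutation test gave p = 0.0022, the smallest that 6 against 6 samples can reach. The 5 grafts had 12.65 in FS002, 12.91 in FS003, 10.83 in FS005, 11.27 in FS007 and 10.32 in FS008. All 5 were below every prostate and every fibroblast sample, by 3.40 ± 0.42 from prostate (10.5-fold, adjusted p = 5.7e-05 in limma) and by 4.31 ± 0.44 from fibroblasts (19.9-fold, adjusted p = 8.4e-06 in limma).

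Of the 10 genes, 6 (Acta2, Cnn1, Des, Lmod1, Smtn and Synpo2) matched the RefSeq promoter table (GRCm38.p6), which runs from 250 bases before to 50 after the start, and each window matched mm9 at 1 place. Serum response factor binds the CArG box, a 10-base element with CC, 6 bases that are A or T, and GG, which reads the same way on both strands in that form. None of the 6 windows held it, and 1.63% of all 32851 promoters did. With 1 G or C allowed among the 6 middle bases, a match was found in 9.98% of all promoters. Among the 6 windows, matches were found in Acta2 alone, at 84 and at 34 bases before the RefSeq start. For Acta2 that start is not the GENCODE M1 gene start given above. The 2 Acta2 elements, the only matches in the 6 windows, are shown in capitals, on the minus strand of mm9:
Acta2 chr19:34329928-34329957: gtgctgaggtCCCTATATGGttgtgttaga
Acta2 chr19:34329878-34329907: cgtctttgctCCTTGTTTGGgaagcgagtg
These are matches of letters, and no binding was measured.

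Actg2 (chr6:83462899-83486259, minus strand), the enteric form of smooth muscle actin, ranged from 12.59 to 13.38 in prostate with a median of 12.86, and from 11.22 to 12.48 in fibroblasts with a median of 11.36. The 2 groups did not overlap, and prostate was higher by 1.20 ± 0.24 (2.30-fold, adjusted p = 0.00048 in limma), which became 0.99, under the minimum, with FS019 and FS020 as the only fibroblasts. Among fibroblasts, FS015 and FS020 stood at 12.42 and 12.48 while the other 4 lay between 11.22 and 11.40. Graft values were 11.68, 11.17, 10.09, 10.98 and 8.62 in FS002, FS003, FS005, FS007 and FS008. All were below prostate, by 2.38 ± 0.45 (5.22-fold, adjusted p = 0.00097 in limma). Against fibroblasts the difference of -1.18 ± 0.50 did not pass (adjusted p = 0.054 in limma), and passed without FS002 (-1.48, adjusted p = 0.023) or without FS003 (-1.35, adjusted p = 0.048).

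Myh11 (chr16:14194620-14291501, minus strand), the smooth muscle myosin heavy chain, showed the largest difference between prostate and fibroblasts. Prostate values ran from 14.70 through a median of 15.26 to 15.50, and fibroblast values from 9.61 through 10.01 to 10.77. Every prostate sample was above every fibroblast sample, and the difference was 4.98 ± 0.21 (31.6-fold, adjusted p = 2.5e-10 in limma). In the grafts Myh11 was at 11.77, 11.68, 11.20, 11.88 and 10.58 in the same order. These values lay below all prostate samples, by 3.74 ± 0.24 (13.3-fold, adjusted p = 8.4e-07 in limma), and 1.24 ± 0.28 above fibroblasts (2.37-fold, adjusted p = 0.0022 in limma), with FS008 inside the range of the fibroblasts.

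Among the thin filament proteins, Cnn1 (chr9:21903725-21914074, plus strand) was at 13.41, 13.84 and 14.21 in prostate (lowest, median and highest) and at 11.84, 12.03 and 12.41 in fibroblasts. Prostate was higher by 1.72 ± 0.14 with no overlap (3.29-fold, adjusted p = 8.4e-08 in limma). The grafts, at 10.33, 10.53, 8.83, 9.47 and 7.56, were lower than both other groups without overlap. Their mean lay 4.46 ± 0.45 below prostate (adjusted p = 1.3e-05 in limma), the largest difference between prostate and grafts among the 10 genes, and 2.74 ± 0.45 below fibroblasts (adjusted p = 0.00028).

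Tagln (chr9:45737711-45744141, minus strand) was the gene with the smallest difference between prostate and fibroblasts. Values of 14.56, 14.95 and 15.19 in prostate and of 14.68, 15.16 and 15.23 in fibroblasts overlapped almost fully. The difference was -0.17 with a 95% interval from -0.46 to 0.13 (adjusted p = 0.27 in limma), and quantile normalization turned it to 0.32 (adjusted p = 0.044). Grafts had 12.01, 12.44, 10.42, 10.95 and 9.97, all below both groups, by 3.72 ± 0.39 from prostate (13.1-fold, adjusted p = 1.8e-05 in limma) and by 3.88 ± 0.39 from fibroblasts (14.7-fold, adjusted p = 8.7e-06 in limma).

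Lmod1 (chr1:137221384-137264642, plus strand) followed the same order. Prostate had 9.69, 10.34 and 10.67 and fibroblasts 10.51, 10.55 and 10.84, and the difference of -0.35 (95% interval -0.64 to -0.06) had an adjusted p of 0.028 in limma but a size below 1. Graft values were 7.90, 8.05, 6.54, 6.67 and 5.71. They were lower than prostate by 3.31 ± 0.38 (9.89-fold, adjusted p = 3.4e-05 in limma) and lower than fibroblasts by 3.66 ± 0.37 (12.6-fold, adjusted p = 8.0e-06 in limma), again with no overlap.

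Smtn (chr11:3417526-3440615, minus strand) changed least of the genes that were lower in the grafts. Values were 10.66, 11.23 and 11.39 in prostate and 11.13, 11.24 and 11.73 in fibroblasts, a difference of -0.21 with a 95% interval from -0.51 to 0.10 (adjusted p = 0.19 in limma). The grafts had 10.20, 9.77, 9.52, 8.82 and 9.49, which put them 1.60 ± 0.22 below prostate (3.03-fold, adjusted p = 0.00011 in limma) and 1.80 ± 0.22 below fibroblasts (3.49-fold, adjusted p = 3.0e-05 in limma). FS007, and not FS008, was the lowest graft for this gene alone of the 10.

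Des (chr1:75356904-75365154, plus strand) was the 1 gene of the 10 that did not pass the test between prostate and grafts. In prostate it was at 12.95, 13.39 and 13.59, and in fibroblasts at 7.56, 8.45 and 10.53, a difference of 4.44 ± 0.49 without overlap (21.7-fold, adjusted p = 1.8e-06 in limma). The grafts had 13.21 in FS002, 12.70 in FS003, 13.06 in FS005, 11.69 in FS007 and 9.89 in FS008, so FS002 and FS005 were inside the prostate range and FS008 was below the 2 highest fibroblast samples. Grafts were higher than fibroblasts by 3.24 ± 0.72 (9.43-fold, adjusted p = 0.0023 in limma). Prostate minus grafts was 1.20 (95% interval 0.09 to 2.31) and did not pass (adjusted p = 0.063 in limma), though it did without FS002 (1.48, adjusted p = 0.032) or without FS005 (1.44, adjusted p = 0.040).

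Synpo2 (chr3:122779437-122939067, minus strand) ran from 10.65 through 11.05 to 11.44 in prostate and from 4.92 through 6.84 to 7.65 in fibroblasts, and prostate was higher by 4.48 ± 0.41 (22.3-fold, adjusted p = 3.4e-07 in limma). Graft values of 9.36, 9.59, 9.03, 7.93 and 6.62 were all below prostate (5.67-fold, 95% interval of the log2 difference 1.49 to 3.51, adjusted p = 0.00083 in limma). They exceeded fibroblasts by 1.98 ± 0.63 (3.93-fold, adjusted p = 0.017 in limma), with FS008 inside the fibroblast range, and did not pass after quantile normalization (1.27, adjusted p = 0.083) or with close fibroblast samples averaged in pairs (1.98, adjusted p = 0.065).

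Across the 5 grafts of the first table, the summed skeletal muscle markers had the same order as Des. Synpo2 was likewise higher in FS002, FS003 and FS005 than in FS007 and FS008, but was highest in FS003. Smtn was also lowest in FS007 (8.82) and FS008 (9.49), the latter close to FS005 (9.52). All 15 genes of a skeletal muscle list were above 3 reads in FS002, FS003 and FS005, 13 in FS007 and 12 in FS008, and their summed share of the normalized level was 0.723%, 0.410%, 0.474%, 0.0327% and 0.0104%. The same share was between 0.0303% and 0.0585% in prostate and between 0.0025% and 0.0077% in fibroblasts. Myog and Myod1, the defining factors of skeletal muscle, were at 8.12 and 6.97 in FS002 and below the level of 3 reads in FS008 (-0.46 and 1.16). FS007 and FS008 were also the 2 lowest grafts of the first table in Des and Synpo2, so with these 2 alone against fibroblasts, a choice made after the values were seen, smaller differences of 1.92 for Des (adjusted p = 0.098 in limma) and 0.74 for Synpo2 (adjusted p = 0.41) follow from the choice. Myh11 differed by 1.05 there, against 1.24 with all 5 grafts, and no longer passed with 2 grafts (adjusted p = 0.051 in limma). The part of skeletal muscle in these values was not tested.

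Myocd (chr11:64990063-65083491, minus strand), the coactivator, was the least abundant of the 10 genes per kilobase in prostate, grafts and fibroblasts. Prostate had 6.92, 7.76 and 8.33 and fibroblasts 4.52, 5.22 and 6.44, a difference of 2.29 ± 0.33 without overlap (4.91-fold, adjusted p = 2.6e-05 in limma). Grafts were at 4.53, 6.51, 4.85, 5.17 and 4.47, below prostate by 2.60 ± 0.38 (6.05-fold, adjusted p = 0.00016 in limma). Grafts and fibroblasts overlapped, although FS003 lay just above and FS008 just below every fibroblast sample. The difference of -0.30 between grafts and fibroblasts had a 95% interval from -1.33 to 0.72 (adjusted p = 0.58 in limma). That difference was -2.43 after quantile normalization (adjusted p = 0.0013) and 0.43 with FS003 and FS007 as the grafts (adjusted p = 0.56). Low values carry added scatter in these files, which bears on Myocd more than on the other genes.

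The mix of the contractile genes also differed within samples. The log2 value of Myh11 minus that of Acta2 cancels the scaling of a library, and it was 0.16 ± 0.15 (SD, n = 6) in prostate, -0.18 ± 0.82 (SD, n = 5) in the grafts and -5.73 ± 0.18 (SD, n = 6) in fibroblasts. The 5 grafts had -0.88, -1.23, 0.36, 0.61 and 0.25, and the fibroblasts lay between -5.93 and -5.53. Exact two-sided permutation tests gave p = 0.0022 for prostate against fibroblasts and p = 0.0043 for grafts against fibroblasts, the smallest values possible at these sizes, and p = 0.36 for prostate against grafts (Benjamini-Hochberg over 6 tests 0.0052, 0.0052 and 0.36). Grafts were lower than prostate in both genes, with a Myh11 to Acta2 difference whose mean was 0.34 away from that of prostate.

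Actg2 minus Acta2 separated all 3 groups. It was -2.10 ± 0.14 (SD, n = 6) in prostate, -4.22 ± 0.33 (SD, n = 6) in fibroblasts and -1.09 ± 0.63 (SD, n = 5) in the grafts, with single grafts at -0.98, -1.74, -0.74, -0.28 and -1.71. Every graft was above every prostate sample, whose highest value was -1.91 (exact permutation test, p = 0.0043, adjusted over 6 tests 0.0052). Relative to Acta2, the enteric actin was therefore higher in these 5 grafts than in prostate although its own level was lower. A difference between genes within a sample does not cancel unequal matching of rat reads to the mouse genome, which was not measured. The 2 grafts of the separate table lay on either side, FS022 at 0.24, above all 5, and FS023 at -3.75, below every prostate sample.

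**Figure D3:**
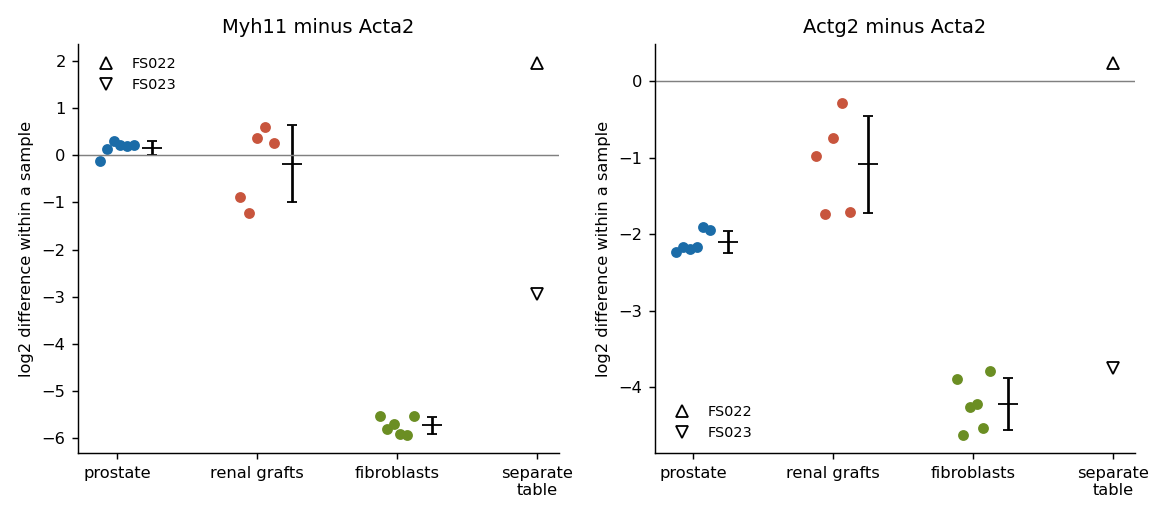
Log2 value of Myh11 minus Acta2 (left) and of Actg2 minus Acta2 (right) within each sample, by group, with the mean ± SD as black bars and grafts FS022 and FS023 as open triangles. The fibroblasts sit between -5.93 and -5.53 on the left, far below every other sample, and on the right the 5 grafts of the first table lie above all prostate samples.

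Within the grafts, the 10 genes tended to be high or low together. FS008 was the lowest of the 5 grafts of the first table in 9 genes, FS003 the highest in 6 and FS002 in 3. Their summed share of the normalized level was 0.214% in FS002, slightly less in FS003, 0.121% in FS005, 0.0959% in FS007 and 0.0401% in FS008, against 0.523% to 0.965% in prostate and 0.450% to 0.748% in fibroblasts. The difference between the highest and the lowest graft was 1.30 for Myh11 and 3.31 for Des, while the 6 prostate samples spanned at most 1.41 (Myocd). Kidney tubule markers, a sign of host tissue, made up 0.609%, 0.0121%, 1.27%, 0.0485% and 1.05% of the normalized level in FS002, FS003, FS005, FS007 and FS008. For Acta2 and Cnn1, FS008 and FS005, with the highest shares, were the lowest grafts and FS003, with the lowest share, the highest, but FS002, also high in these markers, came next after it and FS007, low in them, came between FS002 and FS005. Des did not follow that order, with FS005 above FS003. The part of kidney tissue in these values was not tested. With FS003 and FS007 as the grafts, chosen after the values were seen, prostate was higher in all 10 genes, Des included (1.12, adjusted p = 0.010 in limma).

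The 2 grafts of the separate table lay at opposite ends. FS022 was the highest of all 7 grafts in 10 of 10 genes, and FS023 was the lowest in 7. In FS022 the values were 15.09 for Acta2, 15.33 for Actg2, 17.06 for Myh11, 14.37 for Cnn1, 14.79 for Tagln, 15.57 for Des, 10.87 for Lmod1, 12.29 for Smtn, 8.47 for Myocd and 12.50 for Synpo2. Acta2 and Tagln were inside the prostate range and the other 8 were above every prostate and fibroblast sample, by up to 2.44 above the prostate mean for Actg2. For Lmod1, Myocd and Cnn1 the margin was small, so their place above all samples depends on the scaling of the table. Because the tables were normalized apart, ranks within a library are given too. Myh11 had the highest level of any gene in FS022 without correction for length, at 0.863% of the normalized level, while it ranked between 13 and 42 in prostate.

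FS023 held the same genes at 9.73 (Acta2), 5.99 (Actg2), 6.79 (Myh11), 7.33 (Cnn1), 10.10 (Tagln), 10.00 (Des), 4.55 (Lmod1), 8.20 (Smtn), 1.43 (Myocd) and 8.59 (Synpo2). Myocd was below its level of 3 reads (2.70) and the other 9 were above it. The difference between the 2 grafts ran from 3.92 for Synpo2 to 10.27 for Myh11, and the summed share was 2.05% in FS022 and 0.0249% in FS023. Myh11 minus Acta2 was 1.97 in FS022 and -2.95 in FS023, both outside the range of the 5 other grafts. Gfap, an intermediate filament of astrocytes, had the second highest level in FS023, again without correction for length. FS022 also held skeletal muscle markers at 0.623% (14 of 15 above 3 reads), with Myog at 4.92 and Myod1, at 1.82, below 3 reads. In FS023 these markers made up 0.0784% (15 of 15 above 3 reads), more than the 10 contractile genes, with Myog at 6.31 and Myod1 at 5.34. These 2 grafts share a table and, by elimination, a kind, so their difference from each other lies within 1 kind of graft, and its cause was not tested. Where they differ from the 5 other grafts, the table, the absence of NAF and the single graft cannot be told apart.

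**Figure D4:**
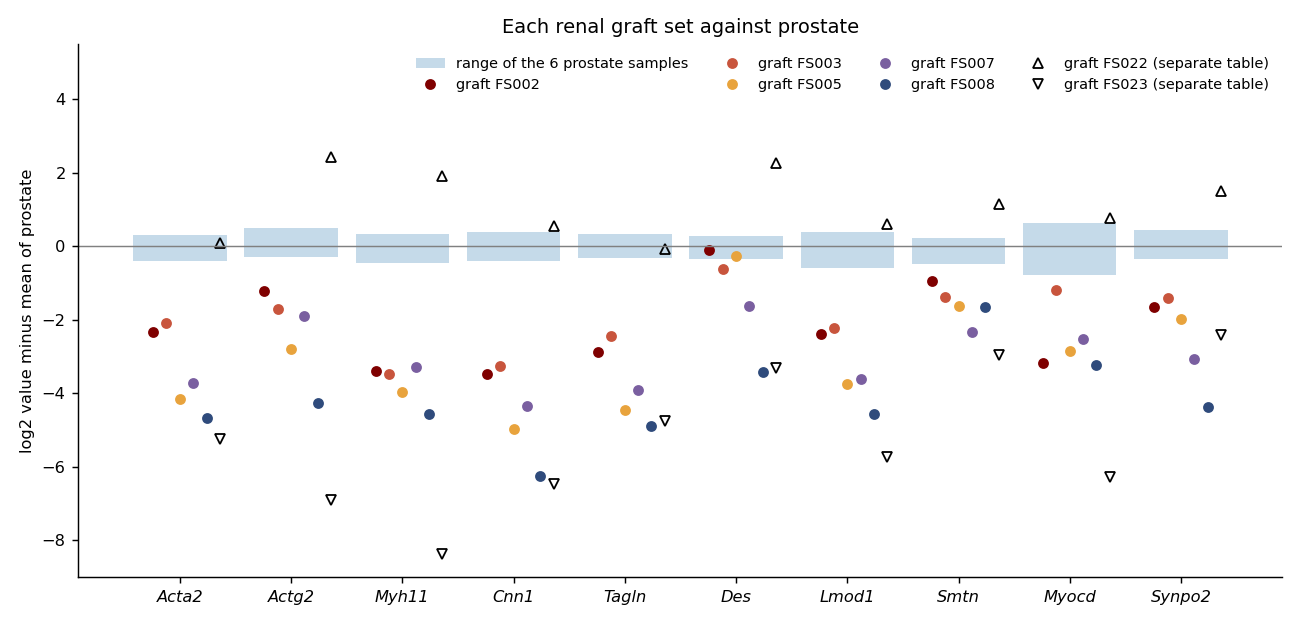
Log2 value of each gene in each renal graft minus the mean of the 6 prostate samples, whose range is the blue band. Filled points are the 5 grafts of the first table and open triangles are FS022 and FS023, which were normalized separately. FS022 is inside or above the band for every gene, and the only filled points inside a band are those of FS002 and FS005 for Des.

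**Figure D5:**
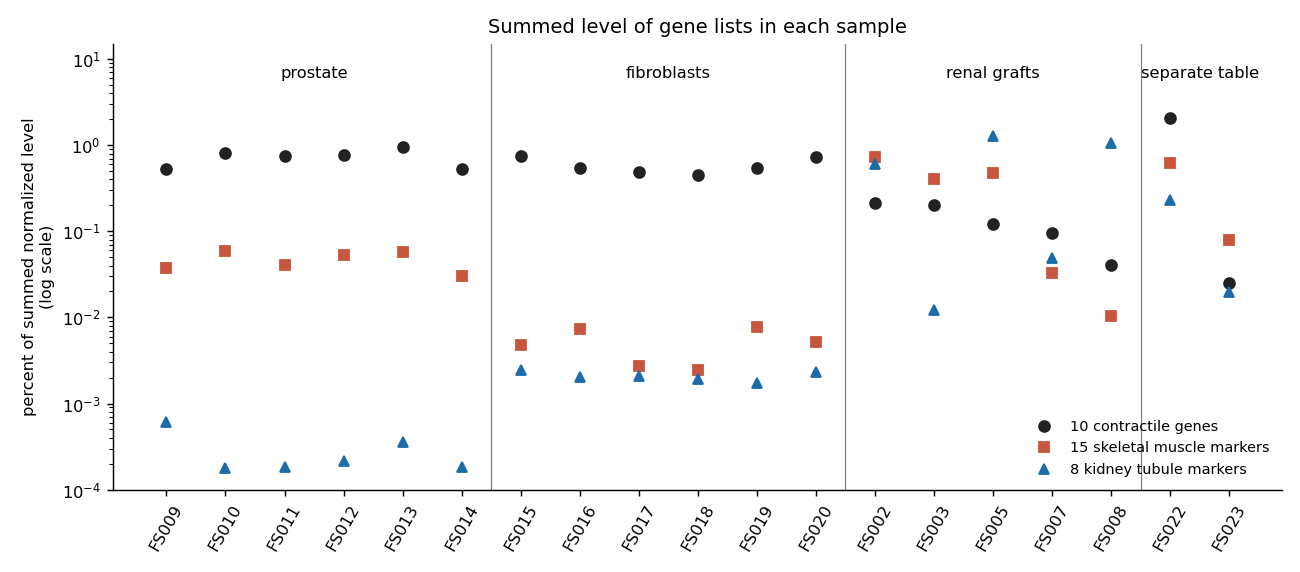
Summed level of the 10 contractile genes (black), 15 skeletal muscle markers (red) and 8 kidney tubule markers (blue) in each sample, as a percent of the summed normalized level, on a log axis. The contractile genes reach 2.05% in FS022 and fall to 0.0249% in FS023, and the skeletal muscle markers are above them in FS002, FS003, FS005 and FS023.

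Fibroblasts fell into 3 close pairs, and the pairs showed most in Des and Synpo2. FS017 with FS018, FS015 with FS020 and FS016 with FS019 differed by 2.09, 3.38 and 4.59 times the counting noise, against 16.0 to 20.2 times for the other pairs of fibroblast samples. Des was at 10.53 and 10.46 in FS015 and FS020, at 8.36 and 8.53 in FS016 and FS019, and at 7.80 and 7.56 in FS017 and FS018. Synpo2 followed the same order, at 7.65 and 7.43, at 6.83 and 6.85, and at 5.49 and 4.92. Leukocyte markers moved with the pair FS015 and FS020. That pair was also the highest in Acta2, Actg2, Myh11, Cnn1 and Tagln, but not in Lmod1, Smtn or Myocd. The 7 markers in the files made up 0.0406% and 0.0353% of the normalized level in these 2 samples and 0.000495% to 0.000857% in the other 4. Lyz2, the lysozyme of macrophages, was at 12.12 and 11.91 there and between 5.26 and 5.88 in the other 4, whereas the T cell and B cell markers Cd3e and Cd79a stayed below the level of 3 reads in both. The part of leukocytes in the contractile genes was not tested.

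When each pair was averaged to 1 value, the 6 genes higher in prostate passed again. In grafts against fibroblasts Myh11 and Des passed in limma (adjusted p = 0.018 and 0.017) and Synpo2 did not (0.065), while exact permutation tests on the averaged values gave p = 0.071 for Myh11, 0.071 for Des and 0.11 for Synpo2, where 0.036 is the smallest possible. Whether samples of a pair shared a culture is not given in the sources used here, and p-values then measure only the spread between these samples. Prostate secretory transcripts were seen in FS015 to FS018, at a median of 0.182%, 0.0560%, 0.0735% and 0.0544% of their prostate level, over 5 secretory genes. At that median, the same share of prostate RNA would make up to 3.88% of a contractile gene's level there (Myh11 in FS015), and at the highest of the 5 genes up to 6.36% (Synpo2 in FS018). FS019 and FS020 had medians of 0.00048% and 0.00061%, though Tgm4, 1 of the 5 genes, was at 7.43 and 7.26 there (0.0452% and 0.0402% of prostate). With FS019 and FS020 as the only fibroblasts, Myh11, Des and Synpo2 no longer passed in grafts against fibroblasts, at 1.09, 2.61 and 1.36 (adjusted p = 0.070, 0.074 and 0.22 in limma).

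Across the 17 samples of the first table, the genes most like Acta2 were Tagln (Pearson r = 0.984), Lmod1 (0.983), Ykt6 (0.970), Fam114a1 (0.967) and Sec24d (0.964) among 16101 genes. Those most like Myh11 were Gne (0.984), Trim68 (0.981), Ppie (0.980), Gstm2 (0.978) and Gm5547 (0.977), none of them a contractile gene. Within the set, Myh11 had r = 0.933 with Synpo2, 0.831 with Des and with Myocd, and 0.088 with Acta2. These values describe samples that fall into 3 groups and share their libraries, and no p is given. In FS022, where Myh11 was highest, Gne was at 10.18 and Ppie at 8.89, below their prostate means of 12.41 and 9.75.

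Other genes of the contractile apparatus, a list of 40, moved in both directions. In prostate against fibroblasts, 14 of 39 tested were higher and 15 lower (median 0.06), against 27.8% and 20.5% of all genes tested (median 0.17). Those with the largest differences were the Z-line protein Pdlim3 (10.13 ± 0.22 against 2.80 ± 0.34), the potassium channel Kcnma1 (10.53 ± 0.10 against 5.36 ± 1.29) and the adhesion protein Pgm5 (12.82 ± 0.31 against 8.25 ± 1.71, all SD, n = 6), all higher in prostate. In grafts against fibroblasts, 4 of 40 were higher and 17 lower (median -0.84), against 29.9% and 12.0% of all genes (median 0.26). Pdlim3 was higher there by 5.58 and the actin-binding protein Cald1 was lower by 4.29 (adjusted p = 1.4e-08 in limma). Pdlim3 was at 10.23 to 10.41 in FS002, FS003 and FS005, and at 6.17 or less in FS007 and FS008. In prostate against grafts, 20 of 40 were higher and 2 lower (median 1.52), against 10.3% and 23.0% of all genes (median -0.11). Pgm5 (3.55) and Kcnma1 (3.19) were among those higher.

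Among 20 regulators of smooth muscle, prostate was higher than fibroblasts in 4 and lower in 11 (median -1.22), beside the same 27.8% and 20.5% of all genes. Grafts were higher than fibroblasts in 3 and lower in 5 (median -0.80, beside 29.9% and 12.0%), and prostate was higher than grafts in 2 and lower in 2 (median -0.18, beside 10.3% and 23.0%). The transcription factor Tcf21 was at 8.28 ± 0.25 in prostate, 6.10 ± 1.55 in grafts and 0.98 ± 2.18 in fibroblasts, a mean below the level of 3 reads. Tbx18 ran the other way, at 3.23 ± 0.42, 5.26 ± 0.90 and 9.29 ± 0.60. Tbx3 was higher in prostate (12.71 ± 0.30) than in grafts (7.93 ± 1.76) and fibroblasts (8.60 ± 0.56). The kinase Rock2, which keeps myosin light chains phosphorylated, was 2.32 lower in grafts than in fibroblasts (adjusted p = 3.1e-07 in limma).

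The 4 other actins served as a comparison within the family. The cytoplasmic actins Actb and Actg1 were lower in prostate than in fibroblasts, by 1.95 and 1.73, and lower in grafts than in fibroblasts, by 1.47 and 1.36, and neither passed the test between prostate and grafts. Acta1, the skeletal muscle form, was at 12.82 ± 0.30 (SD, n = 6) in prostate and at 15.18, 14.43, 14.75, 12.07 and 10.09 in the 5 grafts. It was higher than in fibroblasts by 3.45 in prostate (adjusted p = 1.0e-06 in limma) and by 3.94 in grafts (adjusted p = 0.0021 in limma), and was at 16.10 in FS022 and 11.88 in FS023. Actc1, the cardiac form, was at 9.41, 9.47 and 8.52 in FS002, FS003 and FS005 and at 1.67 and 2.04 in FS007 and FS008, and passed no test.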

How the data were processed

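RNA was measured with Illumina TruSeq v2 libraries, 1 per sample, of 6 prostate samples, 6 fibroblast samples and 7 renal grafts. Per the labels, the authors' processing notes name bcl2fastq 1.8.4, TopHat, Cufflinks and DESeq with mm9. The counter, strand setting and transformation are not given in the sources used here. The authors deposited log2 values of DESeq-normalized reads in 2 tables. Values from 11.5 to 15 corresponded to whole reads times a sample constant plus 1.611 (100% within 0.05 reads), which gave the estimated depth. Lower values carry scatter, so counts were not recovered.

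Log2 values were tested as deposited with limma 3.58.1 in R 4.3.3 (trend, linear mean of at least 10, Benjamini-Hochberg over all genes), checked on simulated data, and with exact permutation tests (scipy 1.17.1). Positions are from GENCODE M1 (mm9). All 10 genes were named. From the apparatus and regulator lists, the 3 largest called differences per comparison were named, and all 4 other actins. The fibroblast genotype and 1 listed gene are not reported here. Likeness was ranked by Pearson correlation, with the first 5 named. Members and lists were chosen with earlier results of these data known. Alternatives covered pseudocount, filter, scaling, fold minimum, trend and left-out samples.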

Additional observations from a re-analysis of the deposited data

Results flagged for a closer look

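In FS022, whose table entered no comparison, 8 of the 10 genes were above every prostate and every fibroblast sample: Actg2 at 15.33, Myh11 at 17.06, Cnn1 at 14.37, Des at 15.57, Lmod1 at 10.87, Smtn at 12.29, Myocd at 8.47 and Synpo2 at 12.50. The margin was small for Lmod1 (highest fibroblast sample 10.84), Myocd (highest prostate sample 8.33) and Cnn1 (highest prostate sample 14.21). The table was normalized separately and holds 1 graft at this level, so the difference was not tested. Of 30 sets of a gene in a group, 0 had a single sample flagged as far from the rest. About 1.5 would be flagged by chance, but the 10 genes share their samples, so 0 is not read as fewer.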

How the results depend on the processing

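The count of genes lower in prostate than in fibroblasts (0) became 2 with no minimum fold change, Acta2 and Lmod1 (adjusted p = 0.00016 and 0.028 in limma), and 1 with FS019 and FS020 as the only fibroblasts, Acta2 (-1.06). The count higher in grafts than in fibroblasts (3) became 0 with FS019 and FS020 only, where Myh11 was at 1.09 (adjusted p = 0.070), Des at 2.61 (0.074) and Synpo2 at 1.36 (0.22), and 0 with FS007 and FS008 as the only grafts. Both settings use fewer samples, and FS007 and FS008 were the lowest of the 5 grafts in Des and Synpo2. Without single samples the counts stayed within 1.5 times. Tagln, prostate against fibroblasts, turned to 0.32 with quantile normalization, and Myocd, grafts against fibroblasts, to 0.43 with FS003 and FS007 only. The cause was not tested. With FS019 and FS020 only, Actg2 in prostate against fibroblasts fell to 0.99, under the minimum.

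Genes called without a minimum fold change numbered 11772, 10573 and 9093 in the 3 comparisons, against 7026, 6757 and 5440. Quantile normalization moved the share called higher from 57.6% to 48.1%, from 71.3% to 42.5% and from 30.9% to 56.4%. With FS007 and FS008 only, that share was 59.9% in grafts against fibroblasts and 45.7% in prostate against grafts. No paired analysis was possible because the labels carry no replicate numbers shared between groups. Depth limits Myocd most, and the 2 shallower libraries FS022 and FS023.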
